A study of Oncorhynchus mykiss with 70 samples.

Results

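The rainbow trout genes bambia1 and bambia2, a pair of duplicate copies of the decoy receptor gene bambi, were followed across 23 adult tissues. They are 2 of the 49 activin-pathway genes on a custom NanoString panel, which counts barcoded probes bound to RNA without amplification, and were taken as the panel's probes of those names. The panel was read in 70 samples: 20 tissues had 3 samples, 2 had 4 and Caudal Skeletal Muscle had 2. Of these, 67 samples are labelled male and the 3 of Ovaries female. All fish were untreated clonal trout of the Swanson and Oregon State University lines, aged 2 to 3 years and kept in recirculating water. The labels do not say which line or fish a sample came from, and RNA extraction differed by tissue, with Tri-Reagent for muscle and commercial kits for others. Samples of 1 tissue are called biological replicates in the design text. The p-values of single tissues rest on the spread between such samples. It was estimated for each gene or gene pair over all 23 tissues together, not from the samples of that tissue alone. Where skeletal muscle as a class is compared with the other tissues, the p-values measure the spread between tissues.

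BAMBI, named as an inhibitor of bone morphogenetic protein and activin signalling at the membrane, is a transmembrane protein that resembles the type I receptors of the TGF-beta family but lacks their kinase domain. In frog, mouse and human cells it joins receptor complexes without passing the signal to the Smad proteins, so it acts as a decoy, and its own transcription can be raised by the signals that it dampens. Salmonids kept many duplicate genes after the genome of their ancestor doubled, and the deposited gene list gives bambia1 and bambia2 the same northern pike homolog.

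The deposited lists give the gene to which each probe is assigned. bambia1 is gene LOC100301651 on chromosome 11, which RefSeq (assembly USDA_OmykA_1.1) names bambia. bambia2 is gene LOC110490039 on chromosome 15, which has 3 RefSeq transcripts against 1 for bambia1. Each probe binds a target of 100 bases, given 5′ to 3′ from the deposited probe list, whole for bambia1 and as its first 30 bases for bambia2:
bambia1: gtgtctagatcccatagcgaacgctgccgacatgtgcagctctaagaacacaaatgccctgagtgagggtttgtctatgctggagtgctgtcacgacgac
bambia2: aaaaagaggacagaattgaacgcaagcctt
The longest run of bases that the 2 whole targets share is 6, and 21 of 100 positions are the same when they are laid side by side without gaps. The longest run shared with any of the 47 other panel targets is 11 bases for bambia1 and 10 for bambia2. These comparisons cover the panel targets only. Neither target was compared with the whole transcript of the other copy, so binding of a probe to the other copy's RNA was not tested. The bambia1 target has 1 reading frame free of stop codons and a GC content of 53%. The bambia2 target has 0 such frames and a GC content of 44%. Since the probes differ in sequence, a ratio of their counts may hold a constant difference in probe efficiency, and only differences of that ratio between tissues were tested.

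Total counts per sample were 52194 to 269554, and 7 to 48 of the 49 pathway genes lay above the mean plus 2 SD of the 8 negative-control probes. In 8 samples 24 or fewer genes did, among them Heart 3, Gill 1, Head Kidney 3, Bulbus Arteriosus 2, Liver 1, Epaxial Skeletal Muscle 1, Adductor Skeletal Muscle 1 and Red Skeletal Muscle 3. The panel's few tissue markers were set against the labels before the bambi genes. The muscle marker mstna1, a myostatin gene, was above background in 20 of 22 skeletal muscle samples. It was also above background in 31 of 48 other samples, and Brain 2 was at 416.7 reference-scaled counts against 12.05 and 15.91 in the other Brain samples, so its presence does not set muscle apart. Among muscles it was not above background in Extraocular Muscle 2, at 2.10 against 1350 and 1780 in Extraocular Muscle 1 and 3, nor in Adductor Skeletal Muscle 1. The summed gonad markers inhab1 and inhab2, inhibin alpha genes, were 6492, 4852 and 246.9 in Ovaries and 1943 to 2178 in Testes, and reached 830.3 in Red Skeletal Muscle 2 and 623.9 in Pelvic Fin Skeletal Muscle 4. The summed liver markers inhbcb1 and inhbcb2 were 1252, 102.2 and 483.2 in Liver, and 244.3 to 737.2 over the Caudal, Epaxial and Hypaxial Skeletal Muscle samples, so they did not set liver apart from these muscles. The panel has no marker for the other tissues.

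bambia1 was the copy with more counts in 67 of 70 samples. Its raw count ran between 13 and 707 with a median of 138.5, and it exceeded the negative controls in 69 samples, the exception being Red Skeletal Muscle 3. The bambia2 count ran between 2 and 163 with a median of 33. It exceeded the negative controls in 52 samples, and the 18 samples in which it did not are spread over muscle, gonad, Gill, Liver, Tongue, fin, fat and Brain. bambia2 had the higher count in 3 samples, which were Heart 1, Heart 2 and Bulbus Arteriosus 3.

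For levels, each count was divided by its sample's reference factor, which is the geometric mean of the reference genes ef1a, actb and tbp, set to an average of 1 over samples on the log scale. By this reference-scaled count, bambia1 was highest in trunk muscle and lowest in Heart, Testes, Tongue, Head Kidney and Pyloric Caeca. Its mean was 1115 ± 26.5 (SD, n = 2) in Caudal Skeletal Muscle, 810.1 ± 339 in Epaxial and 642.8 ± 262 in Hypaxial Skeletal Muscle (SD, n = 3 each). Pelvic Fin Skeletal Muscle followed at 402.5 ± 305 (SD, n = 4) and Liver, the highest tissue that is not muscle, at 261.9 ± 56.7 (SD, n = 3). The next means were 239.2 ± 207 in Red Skeletal Muscle, 168.9 ± 39.5 in Retina, 165.0 ± 89.3 in Cardiac Stomach, 143.1 ± 56.1 in Adductor Skeletal Muscle and 130.3 ± 78.9 in Extraocular Muscle. Samples of these tissues overlapped, so their order rests on means closer than the spread between samples. A middle group lay between 75.8 and 117: Gill at 116.9 ± 10.01, Bulbus Arteriosus at 107.6 ± 56.2, Visceral Fat at 104.6 ± 41.2, Pelvic Fin at 101.3 ± 67.6, Distal Intestine at 100.8 ± 41.3, Spleen at 87.4 ± 39.3, Ovaries at 84.2 ± 43.2 and Brain at 75.8 ± 7.84. The lowest were Heart at 45.4 ± 21.5, Testes at 42.2 ± 7.67, Tongue at 39.4 ± 29.6, Head Kidney at 30.8 ± 13.8 and Pyloric Caeca at 26.8 ± 2.11. Only the step between Brain and Heart exceeded the larger SD of its 2 neighbours and had no overlapping samples, out of 22 steps in the order. The highest mean was 41.6-fold the lowest.

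bambia2 spanned 40.6-fold, with the same muscles at its upper end. Its mean was 228.8 ± 49.2 in Caudal, 180.6 ± 56.8 in Epaxial, 156.9 ± 44.8 in Hypaxial, 89.9 ± 76.0 in Pelvic Fin and 69.6 ± 91.7 in Red Skeletal Muscle. Heart came next at 67.7 ± 11.9 (SD, n = 3), then Bulbus Arteriosus, the elastic outflow chamber of the fish heart, at 58.2 ± 19.0 (SD, n = 3). They were the highest tissues that are not skeletal muscle, whereas Heart ranked among the 5 lowest for bambia1. Below them lay Extraocular Muscle at 48.4 ± 33.5, Liver at 44.8 ± 30.8, Retina at 31.4 ± 9.29 and Distal Intestine at 29.4 ± 2.79. Visceral Fat at 24.7 ± 2.82, Pelvic Fin at 24.7 ± 24.8, Adductor Skeletal Muscle at 23.1 ± 10.02, Brain at 19.3 ± 4.44, Ovaries at 17.0 ± 14.1, Head Kidney at 16.1 ± 5.18, Cardiac Stomach at 16.04 ± 3.59 and Spleen at 15.8 ± 6.90 were close together. Tongue at 11.9 ± 9.998, Gill at 8.60 ± 3.56, Pyloric Caeca at 8.52 ± 1.74 and Testes at 5.64 ± 3.62 were lowest. Samples of neighbouring tissues overlapped at all 22 steps of this order. In a whole tissue, fewer cells that make a transcript and less of it per cell cannot be told apart.

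**Figure D1:**
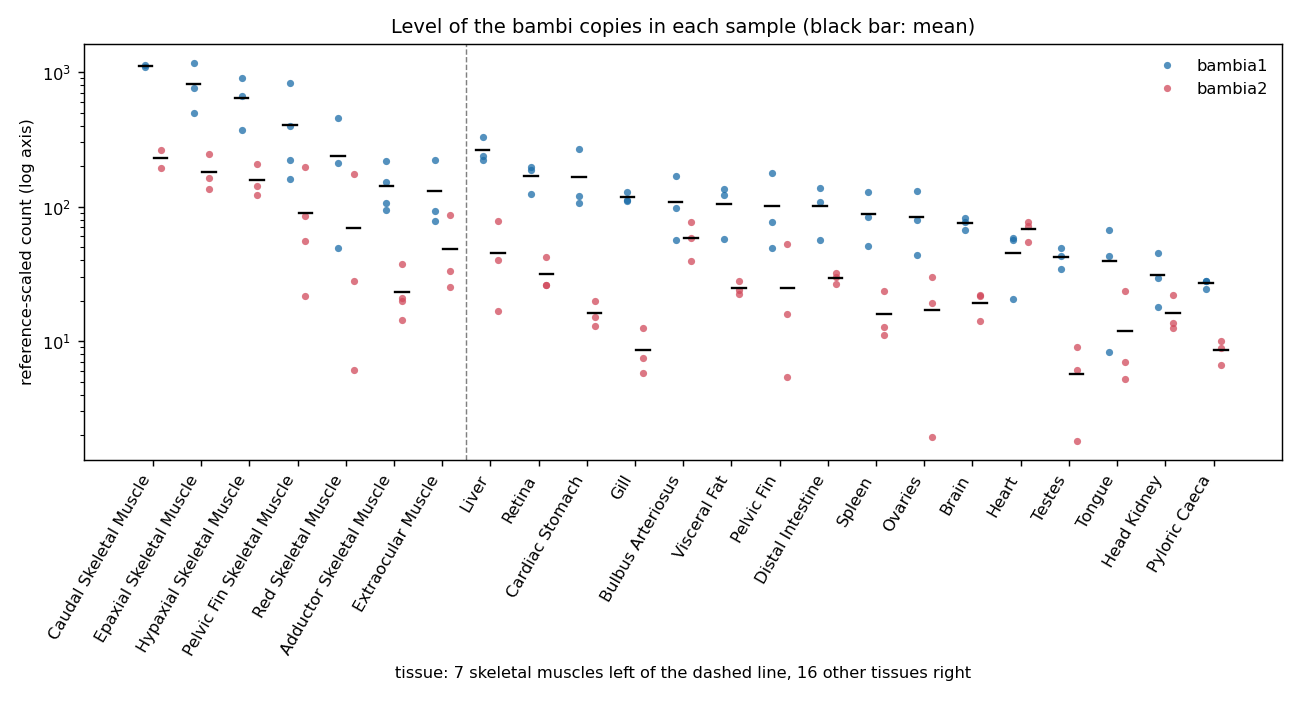
Reference-scaled count (log axis) of bambia1 (blue) and bambia2 (red) in each of 70 samples, 1 point per sample and a black bar for the tissue mean, with the 7 skeletal muscles left of the dashed line and the 16 other tissues right of it. Caudal Skeletal Muscle is highest for both copies, at means of 1115 and 228.8, and Heart is the 1 tissue in which the bambia2 mean, 67.7, lies above the bambia1 mean, 45.4.

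Both genes varied among the 23 tissues, in edgeR's quasi-likelihood F-test with Benjamini-Hochberg adjustment over the panel (F = 12.3, adjusted p = 3.71e-13 for bambia1, and F = 7.83, adjusted p = 9.07e-10 for bambia2). All 49 genes passed this test (100%), so passing it says nothing particular about bambi. By the size of F, bambia1 was 10th and bambia2 25th of 49.

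Each tissue was then compared with the mean log level of the other 22, and a tissue was called at an adjusted p under 0.05 with a log2 difference of at least 1 in size. bambia1 was higher in 5 tissues and lower in 5, and bambia2 was higher in 5 and lower in 4. Over all genes, 20.3% of gene and tissue pairs were called higher and 16.7% lower, and the bambi genes, at 4 or 5 of 23 tissues in each direction, lie near that background. This background differed by tissue. Of 49 genes, 23 were higher in Caudal, 23 in Epaxial, 27 in Hypaxial and 31 in Pelvic Fin Skeletal Muscle. Heart had 8 higher and Liver 5. Lower were 28 in Pyloric Caeca, 26 in Head Kidney, 20 in Gill, 17 in Testes, 6 in Tongue and 3 in Heart. The median log2 difference of all genes was 1.32 in Pelvic Fin Skeletal Muscle, −1.38 in Pyloric Caeca and −1.39 in Head Kidney. Caudal, Epaxial, Hypaxial and Pelvic Fin Skeletal Muscle were called higher for both copies. In Caudal Skeletal Muscle bambia1 was at 1096 and 1133, and bambia2 at 263.6 and 194.1, against medians of the other 22 tissue means of 106.1 and 24.7. Both samples exceeded all samples of the tissues that are not muscle. The log2 difference was 3.26 ± 0.36 (SE, adjusted p = 1.71e-10) for bambia1 and 2.99 ± 0.48 (SE, adjusted p = 1.42e-06) for bambia2. The log2 differences in Epaxial, Hypaxial and Pelvic Fin Skeletal Muscle were 2.77, 2.43 and 1.71 for bambia1 and 2.62, 2.41 and 1.55 for bambia2. Without Pelvic Fin Skeletal Muscle 2, which had the highest values of that tissue (834.0 and 197.0), the bambia2 difference there was 0.85 and no longer called.

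Outside muscle, Liver was the tissue called higher for bambia1. Its 3 samples were at 236.9, 326.8 and 221.9, all above the median of 106.1 for the other 22 tissue means, and the log2 difference was 1.07 ± 0.38 (SE, adjusted p = 0.0191). Without Liver 2 the difference was 0.88 and not called. For bambia2 the same 3 samples were at 77.7, 16.6 and 40.0, a spread of more than the mean, and the log2 difference of 0.52 was not called (adjusted p = 0.384). Heart was the tissue outside skeletal muscle called higher for bambia2, and it is described with the copy ratio.

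Testes, Tongue and Pyloric Caeca were called lower for both copies. In Testes bambia1 was at 43.1, 34.2 and 49.4 and its log2 difference was −1.68, while bambia2 was at 1.80, 6.13 and 8.99 with a log2 difference of −2.55. The bambia2 counts in Testes 1 and 2, 3 and 14, were not above the negative controls, so these are levels near background. In Pyloric Caeca, the blind sacs of the trout gut, bambia1 was at 24.4, 27.9 and 28.2 with a log2 difference of −2.36, and bambia2 at 10.1, 8.88 and 6.63 with a difference of −1.96. The Tongue differences were −1.79 and −1.47. Tongue 1 carried much of them, since its bambia1 level of 8.25 lay below 42.9 and 67.1 in the other 2 samples, and without it the differences were −1.30 and −1.10 and not called. The bambia2 call in Tongue was also lost without Tongue 2, at −1.22. The bambia2 counts in Tongue 1 and 2, 12 and 8, were not above the negative controls, so these too are levels near background.

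Head Kidney and Heart were called lower for bambia1, and Gill for bambia2. In Head Kidney, a blood-forming organ of fish, bambia1 was at 45.3, 29.3 and 17.9 and its log2 difference was −2.15 ± 0.52 (SE, adjusted p = 0.000797). The bambia2 difference there was −1.01 and not called (adjusted p = 0.135). In Gill it was bambia2 that was called, with bambia1 close to the middle of all tissues at a difference of −0.14 (adjusted p = 0.807) and bambia2 at −1.93 ± 0.62 (SE, adjusted p = 0.0104). Without Gill 2 the bambia2 difference was −1.69 and not called. The bambia2 counts in Gill 1 and 2, 6 and 17, were not above the negative controls.

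These levels depend on the reference genes. The reference factor was 0.440 ± 0.355 over the 7 muscles and 2.11 ± 1.19 over the 16 other tissues (mean of tissue means, SD), so that muscle counts were scaled up. Raw counts were similar in the 2 classes, with a mean over tissues of 144.2 ± 85.5 in muscle and 172.9 ± 104.7 in other tissues for bambia1, and 37.5 ± 23.8 and 41.8 ± 21.5 for bambia2. The same fit was therefore also run with each sample scaled by the geometric mean of the 47 other pathway genes. With this pathway scaling, Caudal, Epaxial and Hypaxial Skeletal Muscle were still called higher for both copies, at log2 differences of 1.65, 1.47 and 1.02 for bambia1 and 1.42, 1.403 and 1.09 for bambia2. The Liver, Heart, Testes and Tongue calls for bambia1 also held, at 1.45, −1.61, −1.18 and −1.59. The Heart, Testes and Tongue calls for bambia2 held at 1.18, −2.04 and −1.17. Pelvic Fin Skeletal Muscle, Pyloric Caeca, Head Kidney for bambia1 and Gill for bambia2 were not called. In Gill the bambia2 difference was then −0.88 (adjusted p = 0.131). The bambia1 difference there, near the middle with reference scaling, was 0.95 (adjusted p = 0.0313), just under the size needed for a call. Which copy was shifted in Gill thus depends on the scaling. Brain was then called lower for both copies, at −1.36 and −1.24. Newly called higher were Cardiac Stomach for bambia1, at 1.10, and Bulbus Arteriosus and Distal Intestine for bambia2, at 1.18 and 1.13. Adductor Skeletal Muscle and Ovaries were newly called lower for bambia2, at −1.20 and −1.10. The highest tissue mean of bambia1 was 8.60-fold the lowest on this scale, and that of bambia2 10.3-fold.

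For skeletal muscle as a class, counts were added up within each tissue and the sums compared, 7 muscles against 16 other tissues. RNA extraction also differed, with Tri-Reagent for muscle and commercial kits for others, so tissue class and extraction cannot be told apart. bambia1 tissue means were 130.3 to 1115 in muscle, with a median of 402.5, and 26.8 to 261.9 in the other tissues, with a median of 94.1. bambia2 tissue means were 23.1 to 228.8 in muscle, with a median of 89.9, and 5.64 to 67.7 in the others, with a median of 18.1. The classes overlapped for both genes, since Adductor and Extraocular Muscle lay within the range of the other tissues. Red Skeletal Muscle, at 239.2, did so for bambia1 only. With reference scaling bambia1 was 4.67-fold higher in muscle (log2 2.22 ± 0.44, SE, adjusted p = 0.000174) and bambia2 4.08-fold higher (log2 2.03 ± 0.44, SE, adjusted p = 0.000344). Of the 49 genes, 57.1% were called higher in muscle, with a median log2 difference of 1.13, and the bambi genes ranked 9th and 12th. With pathway scaling the differences were 0.50 (adjusted p = 0.378) and 0.42 (adjusted p = 0.395), where the median of all genes was −0.28. With reference scaling both calls held when any 1 sample was left out, Extraocular Muscle 2 included, with log2 differences of 2.17 to 2.35 for bambia1 and 1.93 to 2.18 for bambia2.

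Among the 7 muscles both genes varied, with F = 7.87 (adjusted p = 0.000105) for bambia1 and F = 4.62 (adjusted p = 0.00748) for bambia2. Of all 49 genes 20.4% did, and by the size of F bambia1 was 2nd and bambia2 4th. bambia1 samples were at 1096 and 1133 in Caudal and 765.4, 1170 and 495.4 in Epaxial Skeletal Muscle, against 218.6, 152.4, 106.9 and 94.6 in Adductor Skeletal Muscle and 221.0, 77.8 and 92.1 in Extraocular Muscle. The Caudal and Epaxial samples all lay above the Adductor and Extraocular samples. bambia2 samples of the same muscles were at 263.6 and 194.1, then 163.6, 243.9 and 134.2, against 19.9, 14.3, 20.9 and 37.5, then 86.8, 25.2 and 33.1. This copy also kept the Caudal and Epaxial samples apart from the other 2 muscles. Red Skeletal Muscle samples lay far apart for their level, at 48.8, 458.8 and 210.0 for bambia1 and 6.11, 174.8 and 27.99 for bambia2, from raw counts of 42 or fewer. The reference factors of these samples were 0.491, 0.092 and 0.071, so counts of samples 2 and 3 were scaled up most. With pathway scaling their bambia1 levels were closer together, at 43.5, 89.3 and 77.5. Red Skeletal Muscle 2 was still highest for bambia2 on that scale, above 5.43 and 10.3 in the other 2. It is also the sample with the highest gonad marker level among muscles, 830.3 against 55.0 and 140.0 in the other 2. The part of this marker level in the bambi levels was not tested, nor was that of the reference factors.

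Against the mean of the other 6 muscles, bambia1 was higher in Caudal (log2 1.85 ± 0.46, SE, adjusted p = 0.00836) and Epaxial Skeletal Muscle (1.31 ± 0.41, SE, adjusted p = 0.0489). It was lower in Extraocular (−1.76 ± 0.52, SE, adjusted p = 0.0321) and Adductor Skeletal Muscle (−1.65 ± 0.46, SE, adjusted p = 0.0259). bambia2 was lower in Adductor Skeletal Muscle (−2.16 ± 0.60, SE, adjusted p = 0.0242) and in no muscle higher. The bambia2 counts in Adductor Skeletal Muscle 1, 2 and 3 were 2, 3 and 8, none above the negative controls, so 3 of the 4 samples give only an upper limit to its level there. Over all genes 3.21% of gene and muscle pairs were called higher and 2.04% lower. These calls rest on few samples. The Caudal call was lost without either of its samples, and the Epaxial call was lost in 45 of 70 fits that left out 1 sample, with differences of 0.95 to 1.57. The Extraocular call was lost without Extraocular Muscle 2, the sample with no mstna1 above background (−1.49, adjusted p = 0.154), and without Extraocular Muscle 3 (−1.57). The bambia1 call in Adductor Skeletal Muscle was lost without sample 2, 3 or 4 (−1.69, −1.53 and −1.48), and the bambia2 call without sample 1, 2 or 3 (−2.11, −1.998 and −2.09). Without Red Skeletal Muscle 2, bambia2 was called lower in Red (−3.04) and higher in Caudal (2.01) and Epaxial Skeletal Muscle (1.60). The bambia2 counts of the remaining Red samples were 3 and 2, neither above the negative controls. With pathway scaling the bambia1 call in Extraocular Muscle was lost (−0.94, adjusted p = 0.188), and Red Skeletal Muscle was called lower for bambia1 (−1.39, adjusted p = 0.0476) and Epaxial Skeletal Muscle higher for bambia2 (1.22, adjusted p = 0.0311), while the other 4 calls were kept.

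The share of bambia1 in the summed counts of both copies needs no scaling between samples. Its tissue mean was 78.7 ± 11.2% over the 23 tissues (SD), and 22 tissues had the higher mean for bambia1. The muscles lay within 73.6 to 84.6% and the other tissues within 38.9 to 93.3%. Over samples with at least 20 counts of both copies together, the mean share was 80.8 ± 3.56% for the 7 muscles, against 77.7 ± 13.2% for the 16 other tissues (SD over tissues). The difference of 3.12 percentage points did not pass an exact two-sided permutation test over tissues (p = 0.588, 245157 permutations). A difference in copy share between muscle and the other tissues was thus not detected, although muscles held the highest level of each copy.

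The ratio of the copies did differ between tissues. In edgeR's test of copy by tissue, in which each sample keeps its own level, the pair had F = 4.24 (adjusted p = 1.65e-05 over 21 duplicate pairs). Of the 21 pairs 81% passed this test, and bambi was 9th by F. Heart, Bulbus Arteriosus and Head Kidney were shifted toward bambia2, and Gill and Cardiac Stomach toward bambia1. Over all pairs and tissues 5.38% of contrasts were called toward copy 2 and 7.45% toward copy 1, which is near 1 or 2 of 23 tissues for a pair, against 3 and 2 for bambi. In either direction, 6 of 21 pairs were called in Heart and 6 in Bulbus Arteriosus, the most of any tissue. In Head Kidney 3 pairs were called, in Cardiac Stomach 2 and in Gill 1. A called copy ratio in Heart or Bulbus Arteriosus is thus not particular to bambi.

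**Figure D2:**
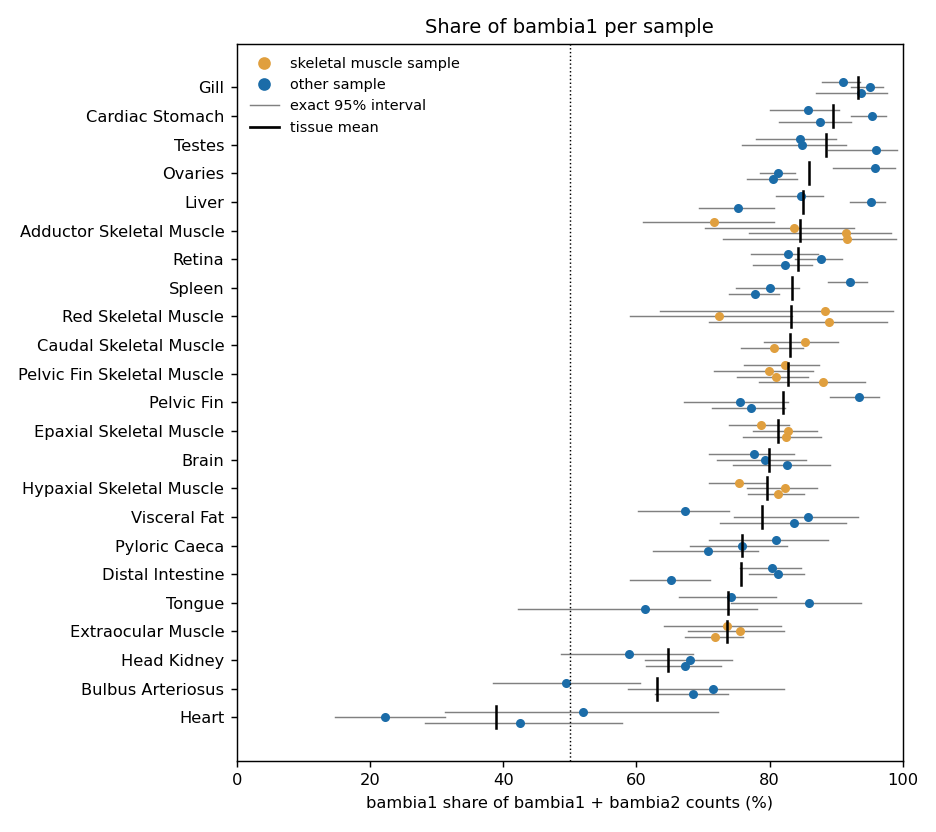
Share of bambia1 in the counts of both copies (%), 1 point per sample with its exact 95% interval for counting error, and a black bar for the mean of each of 23 tissues, ordered by that mean. Heart is lowest at 38.9% and Gill highest at 93.3%; orange points are skeletal muscle samples, whose tissue means lie within 73.6 to 84.6%, and the dotted line marks equal counts.

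Heart stood farthest from the other tissues. The bambia1 counts were 20, 24 and 13 and the bambia2 counts 27, 84 and 12, which gave bambia1 shares of 42.6, 22.2 and 52.0%. The exact 95% intervals were 28.3 to 57.8%, 14.8 to 31.2% and 31.3 to 72.2%, and like all intervals here they cover counting error only. All 3 Heart samples lay below all 64 samples of the 21 tissues other than Heart and Bulbus Arteriosus, which had shares of 58.8 to 96%. The mean share was 38.9 ± 15.2% in Heart (SD, n = 3) and 80.5 ± 7.27% over the other 22 tissue means (SD). The log2 ratio of bambia1 to bambia2 in Heart differed from the other 22 tissues by −2.98 ± 0.48 (SE, adjusted p = 3.98e-06), the largest of the 21 pairs' Heart differences, whose median size was 0.82. This call held in all 70 fits that left out 1 sample, with differences of −3.32 to −2.34. It also held with negative controls subtracted (−3.50, adjusted p = 0.00261) and with only the 52 samples in which both probes exceeded the negative controls (−2.75).

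With reference scaling both copies were called in Heart, in opposite directions, but how far each made up the ratio difference was not tested. The bambia1 levels were 56.9, 20.6 and 58.8, against a median of 112.3 for the other 22 tissue means, and the log2 difference was −1.62 ± 0.53 (SE, adjusted p = 0.0107). The bambia2 levels were 76.8, 72.1 and 54.3, against a median of 24.7, and the log2 difference was 1.16 ± 0.47 (SE, adjusted p = 0.0416). All 3 Heart samples were thus below the middle of the tissues for 1 copy and above it for the other. Taken singly these 2 calls were less stable than the ratio: the bambia1 call was lost without Heart 2 (−1.22), and the bambia2 call without any 1 of the Heart samples (1.07, 1.11 and 1.28) or with ef1a and tbp alone as reference genes (0.85). Heart 2 had the lowest share, and it is also the Heart sample with mstna1 above background, at 104.7 reference-scaled counts against 5.69 and 27.1 in Heart 1 and 3. Without Heart 2 the ratio difference was −2.34 (adjusted p = 0.00448).

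Bulbus Arteriosus, next to the heart in the fish, had the second lowest share. Its bambia1 counts were 200, 45 and 42 and its bambia2 counts 92, 18 and 43, with shares of 68.5, 71.4 and 49.4%. Bulbus Arteriosus 3 fell among the Heart samples, and the other 2 within the range of the remaining tissues. The mean was 63.1 ± 11.95% (SD, n = 3) and the log2 ratio differed from the other 22 tissues by −1.27 ± 0.42 (SE, adjusted p = 0.0353). The call was lost without Bulbus Arteriosus 3 (−0.87) or 1 (−1.47). The bambia1 levels of 168.0, 98.3 and 56.7 and the bambia2 levels of 77.3, 39.3 and 58.1 were not called against the other 22 tissues (log2 −0.26, adjusted p = 0.645, and 0.93, adjusted p = 0.0998). Heart and Bulbus Arteriosus were not tested against each other.

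Head Kidney had counts of 187, 143 and 60 for bambia1 and 91, 67 and 42 for bambia2. The shares of 67.3, 68.1 and 58.8% were below the median tissue but overlapped those of Distal Intestine, Visceral Fat and Tongue. The ratio difference was −1.17 ± 0.40 (SE, adjusted p = 0.0425) and was lost without any 1 of the 3 samples (−1.24, −1.27 and −0.997).

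Gill stood at the other end. Its bambia1 counts were 90, 326 and 377 and its bambia2 counts 6, 17 and 37, with shares of 93.8, 95.04 and 91.1% and a mean of 93.3 ± 2.03% (SD, n = 3), against 78.1 ± 11.01% over the other 22 tissue means. The 3 samples were close together and at the top of the range, which samples of Testes, Ovaries, Liver, Cardiac Stomach, Pelvic Fin, Spleen and Adductor Skeletal Muscle also reached. The ratio difference was 1.86 ± 0.45 (SE, adjusted p = 0.00208) and held in all 70 fits that left out 1 sample (1.60 to 2.18). Only Gill 3 had a bambia2 count above the negative controls. With negative controls subtracted the difference was 2.42 and not called (adjusted p = 0.0676). Cardiac Stomach had bambia1 counts of 141, 268 and 169 and bambia2 counts of 20, 13 and 28, with shares of 87.6, 95.4 and 85.8%. The ratio difference of 1.25 ± 0.44 (SE, adjusted p = 0.0464) was lost in 24 of 70 fits that left out 1 sample and was 0.74 without Cardiac Stomach 2.

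**Figure D3:**
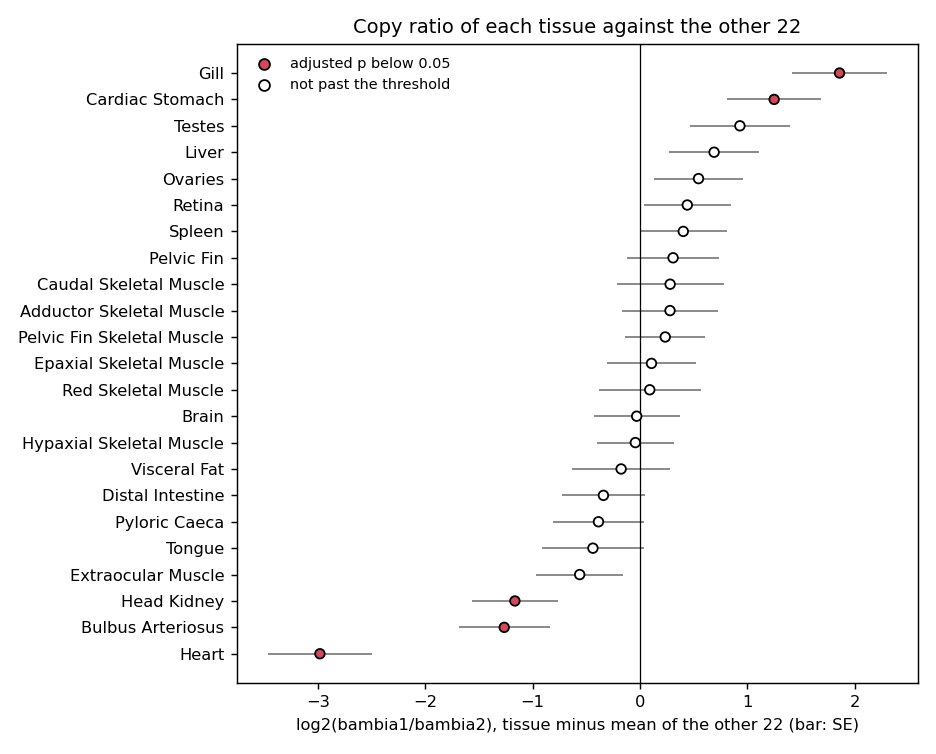
Log2 ratio of bambia1 to bambia2 in each tissue minus the mean of the other 22 tissues, with SE bars from edgeR's fit; filled points passed an adjusted p of 0.05. Heart lies at −2.98 and Gill at 1.86, the other 3 filled points lie at 1.25, −1.17 and −1.27, and the 7 muscles lie between −0.56 and 0.28.

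Across tissue means of log2(scaled count + 10) the copies had a Pearson r of 0.83 and a Spearman rho of 0.74 (23 tissues). The points share their reference factor, so these values are a description. Without Heart and Bulbus Arteriosus r was 0.92 (21 tissues). These tissues have the lowest bambia1 shares in the same data, so a higher r without them is not separate evidence. Over the 7 muscles r was 0.97 and over the 16 other tissues 0.36, with a Spearman rho of 0.48. Those 16 include Heart and Bulbus Arteriosus, and over the other 14 r was 0.69 and rho 0.63. Within tissues, as deviations of 70 samples from their tissue means, it was 0.65. With pathway scaling r was 0.58 over the 23 tissues, and 0.78 without Heart and Bulbus Arteriosus. No difference between these correlations was tested.

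**Figure D4:**
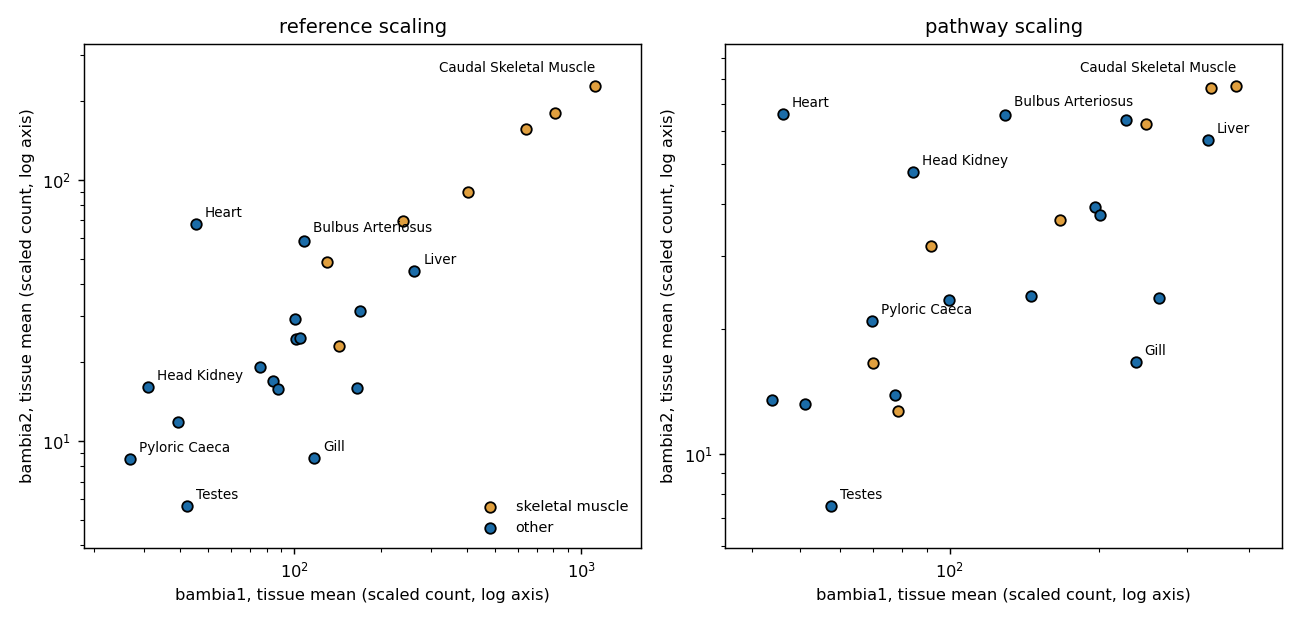
Tissue means of bambia2 against bambia1 (scaled counts, both axes log) for the 7 skeletal muscles (orange) and the 16 other tissues (blue), with reference scaling on the left and pathway scaling on the right. Heart lies above the run of points in both panels and Gill below it. With reference scaling Caudal, Epaxial, Hypaxial and Pelvic Fin Skeletal Muscle form the upper end, while Adductor and Extraocular Muscle lie among the other tissues.

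The 3 panel genes whose tissue profile was most like that of bambia1 were inhbcb2, an inhibin beta subunit gene (r = 0.89), smad4aa1, a common Smad (r = 0.84), and bambia2 (r = 0.83), each over 23 tissue means. For bambia2 they were inhbbb2, another inhibin beta subunit gene (r = 0.87), smad4aa1 (r = 0.83) and bambia1. The least like were acvr1ba1, a type I receptor gene, for bambia1 (r = −0.13) and inhab2 for bambia2 (r = −0.11). With 48 genes compared, the median r was 0.48 for bambia1 and 0.55 for bambia2 with reference scaling, and 0.00 and −0.01 with pathway scaling. On the pathway scale inhbcb2 and inhbbb2 were still first, at 0.69 for bambia1 and 0.64 for bambia2.

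The rest of the pathway was counted in the tissues where the copies differed most, or were highest. In Heart 8 of the 49 panel genes were called higher (16.3%) and 3 lower (6.12%). There, 1 of 10 type I receptor genes, 2 of 15 ligand genes and both inhibitory Smad genes on the panel, smad6a1 and smad7b2, were higher than in the other 22 tissues, and 0 of these were lower. Of the 10 receptor-regulated and common Smad genes 2 were higher and 2 lower, and of the 7 type II receptor genes 0 were called. Bulbus Arteriosus, with 8 of 49 genes higher and 6 lower, also had both inhibitory Smad genes higher. Inhibitory Smads act inside the cell and BAMBI at the membrane, and a link between their levels here was not tested. Bulbus Arteriosus had 0 of 10 type I receptor genes higher and 2 lower, and 1 of 7 type II receptor genes higher and 2 lower. It had 2 of 10 receptor-regulated and common Smad genes higher and 0 lower, and 3 of 15 ligand genes higher and 1 lower. Follistatin (fsta), a secreted activin antagonist, was lower in Bulbus Arteriosus (log2 −2.39) and not called in Heart (−0.26). Red Skeletal Muscle, whose copy ratio was not called, also had both inhibitory Smad genes higher. In Gill 1 of the 49 genes was called higher and 20 lower (40.8%). The gene called higher was the inhibitory Smad gene smad6a1. Lower were 6 of 10 type I and 2 of 7 type II receptor genes, 4 of 15 ligand genes and fsta. So were 4 of 10 receptor-regulated and common Smad genes. With pathway scaling the median log2 difference was 0.003 for the type I receptors and 0.03 for these Smads. In Caudal Skeletal Muscle 23 of the 49 genes were called higher (46.9%) and 0 lower. Of the lists, 7 of 10 type I receptor genes, 4 of 7 type II receptor genes and fsta were higher and 0 of these lower. Fewer were higher among the ligand genes, at 3 of 15, and the receptor-regulated and common Smad genes, at 3 of 10. Of the 2 inhibitory Smad genes 1 was higher. With pathway scaling the median log2 difference was 0.01 for the type I and −0.30 for the type II receptors. In this muscle fsta and the bambi copies were high together, with an fsta level of 320.0 ± 90.3 (SD, n = 2).

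The authors' deposited table of normalized values, with 1 pooled value per tissue, places Heart lowest of 23 tissues for bambia1, at 30.1, and 10th for bambia2, at 49.2, a bambia1 share of 37.97%. In the authors' deposited table Gill was lowest for bambia2, at 5.98, and Epaxial Skeletal Muscle was highest for both copies, at 1373 and 314.9, ahead of Caudal Skeletal Muscle at 818.1 and 166.0. The tissues of that table fall into sets with unequal scales, with a scale of 4721 for 13 tissues, Epaxial Skeletal Muscle among them, and of 1926 for 4 tissues, which are Caudal Skeletal Muscle, Red Skeletal Muscle, Heart and Gill. A level in the authors' deposited table is therefore not comparable between sets, while a copy share within a tissue is. Within the 4 tissues of the second set, the copy ratio in Heart differed from the other 3 by −3.56 (adjusted p = 0.00105). The copy ratio in Gill differed from its other 3 by 2.60 (adjusted p = 0.00429). Heart was thus set against a mean that includes Gill, and Gill against a mean that includes Heart. These tissues have the lowest and the highest mean bambia1 share of the 23, so each difference is enlarged by the other tissue. The fit was added after seeing the data and used the same counts, so it is not separate evidence.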

How the data were processed

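The deposited barcode counts are whole numbers, 1 per probe and sample, not normalized; no count was under 1. The authors' second table holds a normalized signal, 1 pooled value per gene and tissue. It equalled the geometric mean over replicates of count over the 3 reference genes' geometric mean, times a scale shared by sets of tissues; Adductor Skeletal Muscle 1 is left out of it. No source used here gives the method. Probe sequences and gene identity are from the deposited lists.

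The members and gene lists were chosen with earlier results of these data known. edgeR 4.0.16 (quasi-likelihood, R 4.3.3) was fitted to all 70 samples and 49 pathway genes with 1 coefficient per tissue and the reference factor as offset; no filter was applied. p-values were two-sided and Benjamini-Hochberg adjusted over 49 genes, over 1127 gene and tissue pairs, or over 343 gene and muscle pairs. The copy ratio was fitted over 21 duplicate pairs with a coefficient per sample (483 contrasts). Scripts were tested on simulated data. Shares carry Clopper-Pearson intervals (95%, scipy 1.17.1), and the share comparison used an exact permutation test. Named tissues are those called; the 3 genes most like and the 1 least like each copy by Pearson r were named. Tool and scaling alternatives were DESeq2 1.42.0, limma 3.58.1, TMM, positive controls and pathway scaling. Whether equal replicate numbers in the titles mark samples of the same fish is not known. Deviations from tissue means had a median r of 0.03 between same-numbered samples and −0.01 between others. With 2 to 4 samples per tissue, these medians can neither show nor exclude such pairing, so samples of different tissues may not be independent. In no tissue did replicate samples agree within sampling noise (lowest chi-square per degree of freedom 2.40).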

Additional observations from a re-analysis of the deposited data

Results flagged for a closer look

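The copy ratio of 5 tissues differed from that of the other 22 in the test of the difference itself. The log2 difference was −2.98 in Heart, −1.27 in Bulbus Arteriosus and −1.17 in Head Kidney, all toward bambia2. It was 1.86 in Gill and 1.25 in Cardiac Stomach, both toward bambia1. Only the Heart and Gill calls held in all 70 fits that left out 1 sample. With negative controls subtracted the Heart call held and the Gill call was lost. The scaled levels and shares of the 2 tissues with 4 samples, Adductor and Pelvic Fin Skeletal Muscle, held no sample apart from the rest by Dixon's criterion (largest gap ratio 0.718).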

How the results depend on the processing

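The scaling changed the muscle result, while the copy ratio needs none. The log2 difference of muscle from the other tissues, 2.22 for bambia1 and 2.03 for bambia2, was 0.50 and 0.42 with pathway scaling, 0.45 and 0.41 with TMM, 0.53 and 0.46 with DESeq2 (none called), and reversed to −0.16 and −0.088 when scaled by positive controls only. Positive controls also left bambia1 with 3 tissues higher, 3 lower and 0 muscles higher, and bambia2 with 0 tissues higher, 1 lower and 0 muscles lower; they reversed bambia1 in Extraocular Muscle against the other 6 muscles (0.37) and bambia2 in Pelvic Fin Skeletal Muscle (−0.25). For bambia2, 1 muscle was called higher with pathway scaling, with ef1a and tbp, with DESeq2 and with limma at a pseudocount of 50, and 2 with limma at 10. limma at either pseudocount gave 3 tissues higher for bambia2, and at 50 it gave 0 lower. TMM left 1 muscle lower for bambia1. With negative controls subtracted, bambia2 had 3 tissues higher, 1 lower, 0 muscles lower and an adjusted p of 0.117 among muscles, and bambia1 had 1 muscle lower. The copy ratio then set 1 tissue apart toward bambia2 and 0 toward bambia1. Without the 8 samples with few genes detected, bambia1 had 1 muscle higher and 1 lower, bambia2 2 tissues and 0 muscles lower, and 1 tissue stood apart toward bambia1. Requiring 50 counts of both copies left 1 tissue toward bambia2, and of the Heart samples only Heart 2 had that many. Without Heart 1 tissue stood apart toward bambia1, and without Heart and Bulbus Arteriosus 1 in each direction.

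A block for the scale sets could not be fitted, since each tissue lies in 1 set, so fits within sets were added after seeing the data, as were those without Heart, without Heart and Bulbus Arteriosus, with averaged muscles and with both probes above background. Within the 4 tissues with the scale of 1926, muscle differed by 3.02 for bambia1 (adjusted p = 0.0519) and 1.76 for bambia2 (adjusted p = 0.358), and bambia2 had an adjusted p of 0.264 among muscles; it was 0.122 within the set of 13 tissues, where Bulbus Arteriosus and Head Kidney ratios were −1.20 and −1.10 and not called. With the muscles averaged to 1 tissue, bambia2 was higher in Heart by 1.73 and in Bulbus Arteriosus by 1.51. A replicate block ended 2 calls, the bambia2 call in Tongue (−1.37, adjusted p = 0.0625) and the Cardiac Stomach ratio (1.23, adjusted p = 0.0510), leaving 1 tissue toward bambia1, and changed no other call. Leaving out 1 sample at a time gave 0 to 2 muscles higher and 1 to 2 lower for bambia1, 0 to 2 higher and 0 to 2 lower for bambia2, and 1 to 2 tissues toward bambia1. The cause of these changes was not tested. The Heart call for bambia2 was lost with positive controls (0.78), ef1a and tbp (0.85), DESeq2 (0.98), limma (0.91 and 0.42), negative controls subtracted (1.296) and without samples with few genes detected (1.27), and that for bambia1 with the muscles averaged (−1.08). The Liver call for bambia1 was lost with positive controls (1.03), ef1a and tbp (0.91), limma at 50 (0.75) and without samples with few genes detected (1.14). The low-count filter changed 0 of 47 results. Depth limits bambia2 most, with 18 samples not above the negative controls.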
